A study of Mus musculus with 2207 samples.

Results

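The nuclei described here are the 68 microglia among 730 single nuclei of the 96-well plates, and among 2207 nuclei in the whole series. They were chosen by their labels: every column of the 96-well table that is labelled Microglia was taken, which gave 36 nuclei of wild type (WT) mice and 32 nuclei labelled Ehmt1delta/+, called het below. Both groups are C57BL/6 mice of 14 weeks of age, and both were given tamoxifen at 3 weeks of age, 2 times at 100 mg/kg. Nuclei were taken from brain cortex, with 3 mice for each genotype, stained with DAPI, sorted into wells and sequenced by RamDA-seq, a full-length total RNA method. The labels do not say which mouse a nucleus came from. Each genotype is therefore 1 pool, no test between genotypes is given, and a standard deviation (SD) over nuclei describes nuclei and not mice.

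Microglia are the resident macrophages of the brain. They survey the tissue through purinergic receptors, clear debris, prune synapses and answer danger signals with chemokines, interferon-response genes and the inflammasome, a complex in which caspase-1 matures interleukin-1β and interleukin-18. *Ehmt1* encodes GLP, which with its partner G9a, the product of *Ehmt2*, places mono- and dimethyl marks on lysine 9 of histone H3, a mark of silent chromatin, and loss of 1 copy models Kleefstra syndrome. The question the comparison addresses is how the transcriptome of microglia differs in mice that carry 1 deleted *Ehmt1* allele.

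The labels were checked against 13 microglia markers before the genotypes were compared. In 64 of the 68 nuclei, all 13 of these markers were above 0, among them *Tmem119* and *Sall1*, the markers that set microglia apart from other macrophages. In the other 4 nuclei both genes were at 0. A WT nucleus of plate code 003 had 4 of the 13 markers above 0 and was led by genes of cytotoxic lymphocytes, with *Gzma* at 3069 RPKM, *Nkg7* at 2288 RPKM and *Ncr1* at 870 RPKM. RPKM is a read count scaled to gene length and to the read total of the nucleus. A WT nucleus of code 004 and 2 het nuclei of code 002 were led by genes of macrophages at the borders of the brain. *Mrc1*, the mannose receptor, was at 601 RPKM in the WT nucleus and at 1076 and 841 RPKM in the het nuclei, and *Apoe* was at 1513, 1549 and 2620 RPKM. These 4 nuclei carry the Microglia label and stay in the comparison, and values without them (34 WT and 30 het nuclei) are given beside several results. A result given without such a value may also be moved by them. That alternative was chosen after the data were seen.

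Depth was alike in both groups, with a median of 493358 reads per WT nucleus and 510640 per het nucleus, as recovered from the steps of the RPKM values. The groups differed in other measures. Mitochondrial transcripts took a mean of 1.48% of the reads in WT and 0.360% in het microglia, with ranges of 0.0322% to 4.54% and 0.000188% to 1.78%. The 20 neuron markers summed to 134.2 ± 77.03 RPKM (SD, n = 36 nuclei) in WT and 45.7 ± 48.4 RPKM (n = 32) in het microglia, a log2 ratio of -1.55, and 10 of the 19 markers above 0 in 20% or more of WT or of het nuclei were at least 2-fold lower in het nuclei. Of all genes passing that limit of 20%, 9.39% were at least 2-fold lower. *Snap25*, a synaptic protein gene, was at 51.7 RPKM in WT and 9.85 RPKM in het microglia. The neuron marker sum was lower in het nuclei on each of the 3 plate codes used for both genotypes, with 133.1 and 87.5 RPKM on code 002, 120 and 12.2 RPKM on code 004, and 142.02 and 20.5 RPKM on code 005. Oligodendrocytes of the same plates differed in the same directions, with mitochondrial shares of 0.450% and 0.168% and neuron marker sums of 149.1 and 80.6 RPKM. A mean of 10764 genes was above 0 per WT microglia nucleus and 10029 per het nucleus. The part of these differences in the gene results was not tested, and the main counts, the list medians that they move and several genes are therefore also given without the 17 nuclei highest in neuron markers or in mitochondrial share, which are 15 WT and 2 het nuclei in either case.

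**Figure D1:**
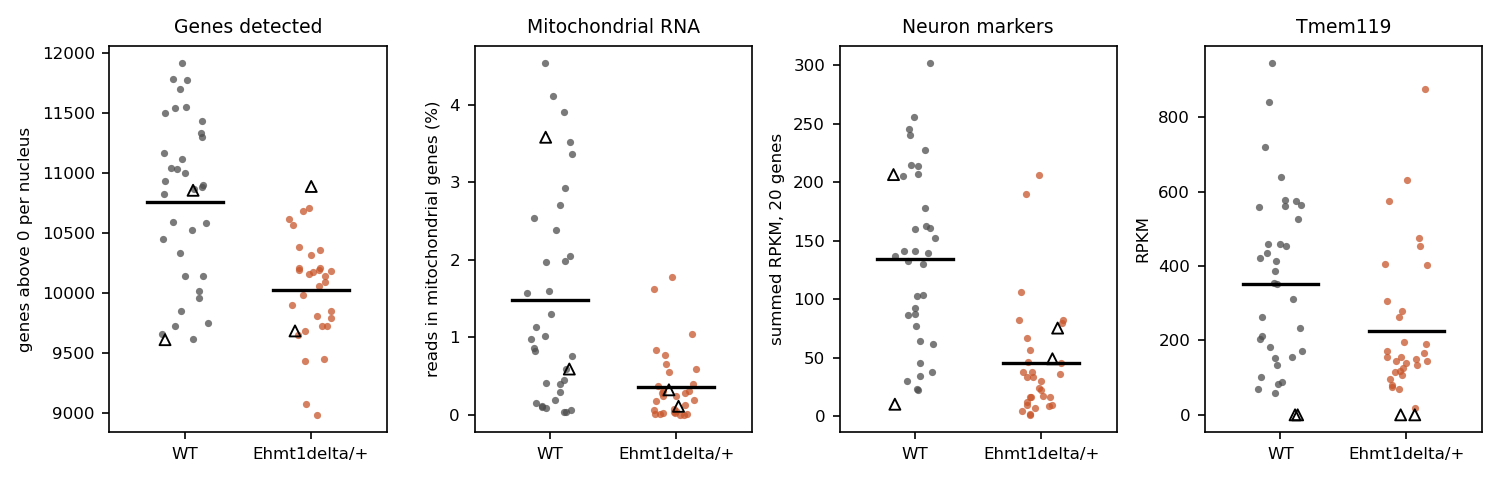
Measures of each microglia nucleus by genotype: genes above 0, percent of reads from mitochondrial genes, summed neuron markers in RPKM and *Tmem119* in RPKM. Each point is a nucleus, the bar is the mean, and open triangles are the 4 nuclei with *Tmem119* and *Sall1* at 0. Numbers of genes above 0 overlap between genotypes, while WT nuclei reach 4.54% mitochondrial reads against 1.78% in het nuclei.

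The plates carry 5 codes, of which 002, 004 and 005 hold nuclei of both genotypes. Code 003 holds 13 of the 36 WT nuclei and no het nucleus, and code 007 holds 5 of the 32 het nuclei and no WT nucleus, so those codes and the genotype cannot be told apart there. Under the shared codes, some wells were listed for both genotypes, so that a code stands for more than 1 plate. The values for each shared code are a check on direction with 6 to 12 nuclei behind each mean, and not replicates.

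A second WT pool and a second Ehmt1delta/+ pool were measured in 384-well plates. Their mice also carried the *Ehmt1* iTg transgene without CamKII-CreER, and gave 16 WT and 19 het microglia nuclei at a median of 42058 and 39940 reads. There the imbalance between genotypes ran the other way, with mitochondrial shares of 1.48% in WT and 5.17% in het microglia, and neuron marker sums of 19.8 and 38.7 RPKM. Values of these pools are set beside those of the 96-well pools. The paper's legends instead name the WT and Ehmt1delta/+ mice of this series with CamKII-CreER, so which transgene these mice carried is uncertain.

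*Ehmt1*, on chromosome 2 of mm10 from 24789928 to 24919614, was higher in het than in WT microglia. Its values ranged from 0 to 46.99 RPKM with a median of 14.0 RPKM in WT nuclei, and from 0 to 46.1 RPKM with a median of 25.2 RPKM in het nuclei. The groups overlapped over nearly the whole range, and the log2 ratio of the means was 0.58 (after adding 0.1 RPKM to each mean, as for all log2 ratios here). It was 0.20, 0.21 and 0.44 on codes 002, 004 and 005, and 0.41 in the 384-well pools. Reads were summed over all exons, deleted or not, so this value does not check the genotype label. *Ehmt2* was at 31.1 RPKM in WT and 24.7 RPKM in het nuclei (log2 ratio -0.33), lower on each shared code, and higher in het nuclei of the 384-well pools (0.59).

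Of 36 genes fixed as the machinery that writes, reads and erases H3K9 methylation, 31 passed the filter used for all genes, a value above 0 in 20% or more of WT or of het nuclei. None of these was 2-fold higher in het microglia and 1 was 2-fold lower, against 6.44% and 9.39% of all genes that passed, and their median log2 ratio was -0.09. The one past 2-fold was *Cdyl2*, a chromodomain protein gene, with 5.66 RPKM in WT and 1.73 RPKM in het nuclei, and it was higher in het nuclei on code 002 (1.49). *Kdm7a*, a histone demethylase gene, stood at the upper end of the list with a log2 ratio of 0.62, and *Cbx5*, which encodes the heterochromatin protein HP1α, was at 11.9 and 6.33 RPKM (-0.90, and lower on each shared code).

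Across all 17461 genes that passed the filter, called tested here although no test over replicates was possible, 1125 (6.44%) were at least 2-fold higher in het microglia and 1639 (9.39%) at least 2-fold lower, with a median log2 ratio of 0.00148. Asking for the same direction on each of the 3 shared codes left 586 genes (3.36%) higher and 963 (5.52%) lower. A gene near the detection limit passes the filter through the genotype in which it is high, so these shares describe these pools and are no count of changed genes. Without code 002, which holds 12 of the het nuclei, 1748 genes were 2-fold higher and 2708 lower. Without the 4 nuclei led by other genes, 1300 of 18105 genes (7.18%) were 2-fold higher and 1854 (10.2%) lower. Without the nuclei highest in neuron markers, 9.24% were higher and 9.46% lower, and without those highest in mitochondrial share, 9.30% were higher and 8.96% lower.

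Genes enriched in microglia leaned to the higher side in het nuclei, and the rest of the transcriptome to the lower side. Of 2252 genes whose mean in microglia was at least 4 times that in neurons and in oligodendrocytes, 11.9% were 2-fold higher in het microglia and 4.22% lower, with a median log2 ratio of 0.15. Of the other 15209 genes, 857 (5.63%) were 2-fold higher and 1544 (10.2%) lower, with a median of -0.03. This split is not given without the nuclei highest in neuron markers or in mitochondrial share. In those settings the higher and lower shares of all tested genes were close to each other. The lower genes included all 13 protein genes of the mitochondrial genome, which were 2-fold lower in het oligodendrocytes and neurons too. Of the 1639 lower genes, 361 were also 2-fold lower in het oligodendrocytes, and of the 1125 higher genes, 97 were 2-fold higher there. The shares of all tested genes past 2-fold in oligodendrocytes are not given, so these counts show no excess of overlap.

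In the 384-well pools, 22% of the same genes were 2-fold higher in het microglia and 21.6% lower at the lower depth of these pools. Of the microglia-enriched genes that were 2-fold higher in the 96-well pools, 41.4% were 2-fold higher there and 15.7% 2-fold lower. Of the 95 enriched genes that were lower, 19 (20%) were 2-fold lower there and 25 (26.3%) 2-fold higher. Of all 1125 higher genes, 31.5% were 2-fold higher there and 22.7% 2-fold lower, and of all 1639 lower genes, 26.1% were 2-fold lower there and 28.9% 2-fold higher.

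*Casp1*, the caspase-1 gene (mm10, chromosome 9, 5298517 to 5307265), was higher in het microglia. Values ran from 0 to 49.3 RPKM with a median of 1.33 RPKM in WT nuclei, and from 0 to 61.5 RPKM with a median of 14.5 RPKM in het nuclei. The ranges overlapped, and the share of nuclei with the transcript differed: 18 of 36 WT nuclei (50%, exact Clopper-Pearson 95% interval 32.9% to 67.1%) and 27 of 32 het nuclei (84.4%, 67.2% to 94.7%) were above 0. The paper reports no increase in the amount of transcript among *Casp1*-positive microglia. The median positive nucleus held 9 *Casp1* reads in WT and 14 in het, so the calls do not hang on single reads. With at least 2 reads asked for, the shares were 50% and 78.1%, and with nuclei thinned to 405822 reads, which left out 4 WT and 3 het nuclei, they were 49.8% and 81.1%. These intervals cover counting error only and do not cover differences between mice.

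The log2 ratio of mean *Casp1* was 1.07, with 1.25, 0.27 and 1.42 on codes 002, 004 and 005. Without the 4 nuclei led by other genes, 3 of which held *Casp1* reads, it was 1.38. Without the nuclei highest in neuron markers it was 1.35, and without those highest in mitochondrial share 1.11. The mean in the 384-well pools was 11.01 RPKM in WT and 12.1 RPKM in het nuclei (log2 ratio 0.13), and the share above 0 was 43.8% in WT and 26.3% in het nuclei, the opposite order.

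**Figure D2:**
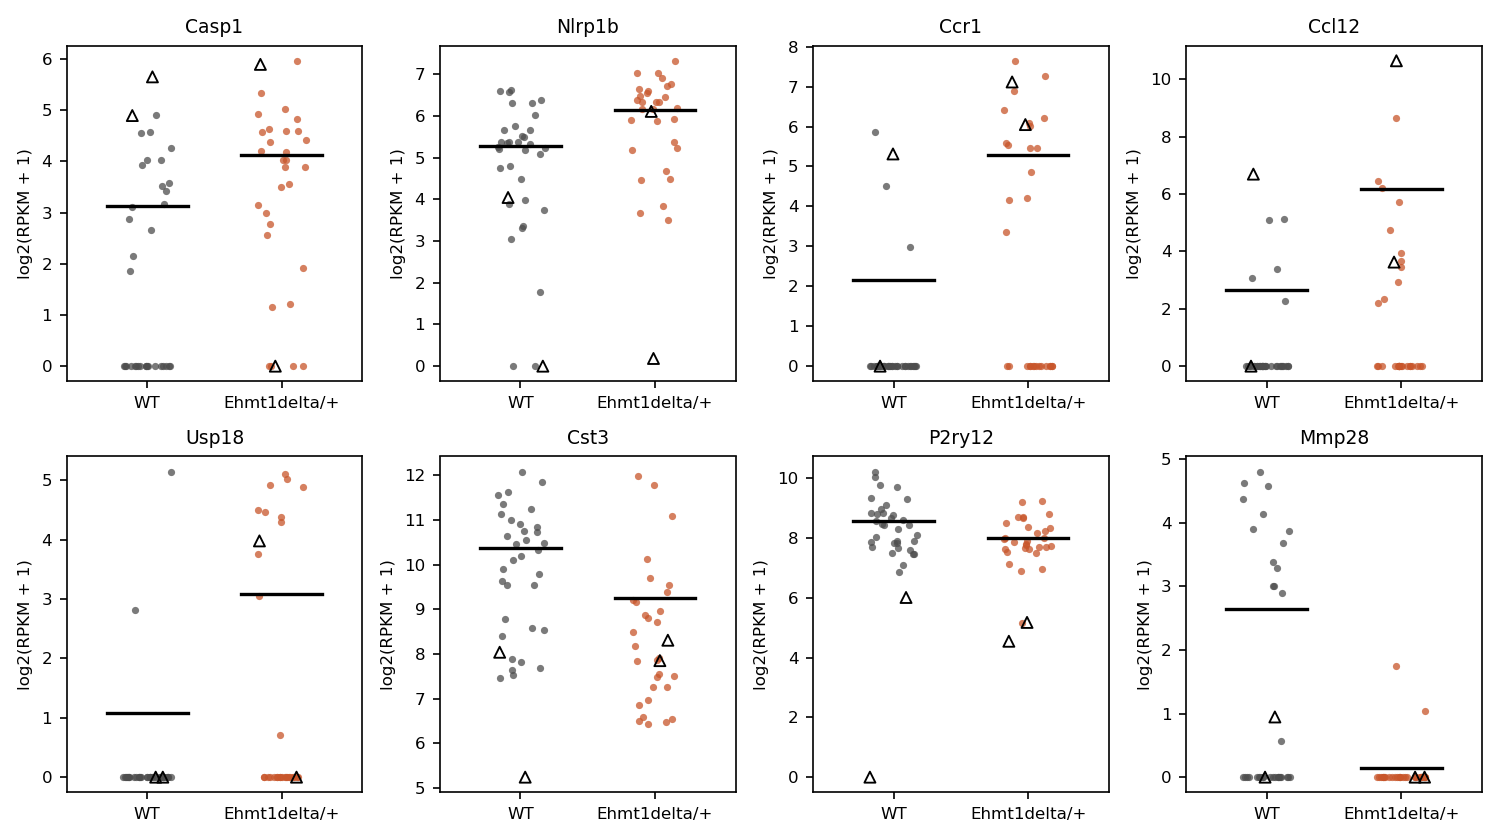
Values of selected genes in each microglia nucleus on the scale log2(RPKM + 1), WT beside het, with a bar at the log2 of the mean plus 1. Open triangles are the 4 nuclei with *Tmem119* and *Sall1* at 0; *Casp1* is above 0 in 18 of 36 WT and 27 of 32 het nuclei, and *Ccr1* in 4 and 17.

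Among the sensors of the inflammasome, *Nlrp1b* and *Nlrp1a* were higher in het nuclei. *Nlrp1b*, a sensor that activates caspase-1, was above 0 in 33 of 36 WT and 32 of 32 het nuclei, with 38.1 ± 28.2 RPKM (SD) in WT and 69.2 ± 39.8 RPKM in het nuclei. Its WT values ran from 0 to 98.2 RPKM with a median of 36.8, and its het values from 0.136 to 159.4 RPKM with a median of 71.7, so the het group was shifted upward with a wide overlap. The log2 ratio was 0.86, with 0.69, 0.65 and 0.92 on the shared codes, 0.84 without the 4 nuclei, 1.18 without the nuclei highest in neuron markers and 0.58 in the 384-well pools. Its neighbour *Nlrp1a* was at 6.07 and 10.2 RPKM (0.74), and reads of such close copies may have been divided between them.

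*Nlrp3*, the sensor that answers many danger signals, was alike at 36.4 and 34.6 RPKM, as were the adaptor gene *Pycard* (31.9 and 30.3 RPKM) and *Gsdmd*, which encodes the pore-forming gasdermin D (82.5 and 83.7 RPKM). *Aim2*, a sensor of cytosolic DNA, was at 30.8 and 39.9 RPKM (0.37) and was lower in het nuclei on code 002 (-0.25). *Il18* was at 19.99 and 28.2 RPKM (0.50, higher on each shared code). *Il1b* was found in 2 of 36 WT nuclei, with a mean of 1.55 RPKM, and listed at 0 in the 32 het nuclei, which allows a share of up to 9.375% of nuclei. Of 26 genes on the inflammasome and interleukin-1 list, 20 passed the filter, 2 (10%) were 2-fold higher and 1 (5%) was 2-fold lower, near the 6.44% and 9.39% of all tested genes, and the median log2 ratio was 0.22. The second higher gene was *Il1rap*, a chain of the interleukin-1 receptor (0.119 and 1.38 RPKM), and the lower one was *Panx1*, a channel gene (2.76 and 0.451 RPKM), which was listed at 0 in both groups on code 002.

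The promoters of *Casp1* and *Nlrp1b*, both among the 6 inflammasome genes that were higher in het nuclei on each shared code, are shown with that of *Stat2*, a mediator of the interferon response described next. Each is the reference sequence of 250 bases before to 50 bases after the start of transcription, from RefSeq on GRCm38.p6, written 5′ to 3′ on the strand of the gene. The windows are chr9:5298267-5298566 (plus strand), chr11:71230684-71230983 (minus strand) and chr10:128270248-128270547 (plus strand), and capitals mark a match to the PU.1 motif in *Nlrp1b* and to the interferon-stimulated response element (ISRE) in *Stat2*:
Casp1: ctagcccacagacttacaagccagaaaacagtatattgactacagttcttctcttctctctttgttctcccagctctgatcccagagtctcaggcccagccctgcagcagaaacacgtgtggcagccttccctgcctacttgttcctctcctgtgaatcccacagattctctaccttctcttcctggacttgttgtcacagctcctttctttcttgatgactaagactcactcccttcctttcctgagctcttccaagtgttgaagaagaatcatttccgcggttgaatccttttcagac
Nlrp1b: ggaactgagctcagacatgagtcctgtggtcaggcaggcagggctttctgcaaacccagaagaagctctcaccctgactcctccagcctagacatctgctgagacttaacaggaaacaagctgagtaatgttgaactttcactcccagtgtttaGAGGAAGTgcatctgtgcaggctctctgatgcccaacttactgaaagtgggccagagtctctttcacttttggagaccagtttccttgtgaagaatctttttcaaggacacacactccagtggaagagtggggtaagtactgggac
Stat2: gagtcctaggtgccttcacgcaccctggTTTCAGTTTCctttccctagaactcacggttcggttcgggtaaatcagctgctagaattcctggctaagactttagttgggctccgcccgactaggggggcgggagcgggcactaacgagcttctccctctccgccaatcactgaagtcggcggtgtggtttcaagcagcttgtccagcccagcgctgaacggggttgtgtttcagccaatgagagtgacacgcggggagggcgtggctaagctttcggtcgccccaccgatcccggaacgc

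*Nlrp1b* has a second RefSeq window, chr11:71201407-71201706, which holds none of the motifs. The match in the window shown begins 96 bases before the start, the match in *Stat2* begins at base 29 of the window, and the *Casp1* window holds none of the motifs searched. The search took PU.1 (GAGGAAGT), AP-1 (TGACTCA or TGAGTCA) and, by name, the NF-κB and ISRE motifs, on both strands. Over 32851 RefSeq windows of this length, 3.2% hold PU.1, 5.2% AP-1, 0.244% NF-κB and 0.231% ISRE. Among the 12 microglia-enriched genes named below as higher, 8 have a window and 1 of these, *Tnfsf13b*, holds a motif, AP-1. A match is a description of letters, and no match says nothing about binding.

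Genes that answer interferon were higher in het microglia as a list, with most members at low levels. Of 38 members, 23 passed the filter, 8 of these were 2-fold higher and 1 was 2-fold lower, with a median log2 ratio of 0.58 against 0.00148 over all tested genes and 6.44% of them 2-fold higher. In all, 20 of the 23 had a log2 ratio above 0. Some members, such as *Usp18* and *Ifi204* (above 0 in 5.56% and 13.9% of WT nuclei), passed the filter only through the het nuclei. The count of 8 is therefore partly set by the filter. Of the microglia-enriched genes, 11.9% were 2-fold higher. The median was 0.46, 0.23 and 1.62 on codes 002, 004 and 005, 0.58 without the 4 nuclei, 0.82 without the nuclei highest in neuron markers, 0.00 in the 384-well pools and -0.04 in oligodendrocytes of the same plates.

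*Stat2*, which carries the interferon signal into the nucleus, was above 0 in 15 of 36 WT and 20 of 32 het nuclei. WT values ran from 0 to 22.9 RPKM with a median of 0, and het values from 0 to 81.2 RPKM with a median of 10.02. The means were 4.55 ± 7.04 (SD) and 13.1 ± 17.5 RPKM (log2 ratio 1.51), with 2.98, -0.56 and 2.22 on the shared codes and 0.90 in the 384-well pools.

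*Usp18*, on chromosome 6 from 121245906 to 121270917, encodes the protease that removes ISG15 and damps the interferon receptor. It was above 0 in 2 WT nuclei (5.56%, interval 0.680% to 18.7%) and in 12 het nuclei (37.5%, 21.1% to 56.3%), with a highest value of 34.4 RPKM in WT and 33.5 RPKM in het nuclei. The means were 1.12 and 7.47 RPKM (log2 ratio 2.63, higher on each shared code). It was also listed at 0 in the 16 WT nuclei and above 0 in 4 of 19 het nuclei of the 384-well pools. *Ifi204*, an interferon-inducible DNA sensor gene on chromosome 1 from 173747293 to 173766943, was above 0 in 5 WT and 10 het nuclei (0.923 and 6.71 RPKM, 2.74), and was listed at 0 in both groups of the 384-well pools. *Mx2*, an antiviral GTPase gene, was at 3.42 and 7.56 RPKM, and *Sp100*, a gene of nuclear bodies, at 3.44 and 7.98 RPKM, though lower in het nuclei on code 004 (-0.18). The member that was 2-fold lower was *Irf1*, a transcription factor gene of the interferon response, with 11.9 RPKM in WT and 4.41 RPKM in het nuclei, above 0 in 22 and 11 nuclei, but higher in het nuclei on code 004 (0.40).

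Antigen presentation genes split. Of 15 members that passed, 2 (13.3%) were 2-fold higher, against 6.44% of all tested genes, and none was 2-fold lower. The median was 0.37, with 0.95, -0.35 and 0.55 on the shared codes. *Nlrc5*, the activator of class I genes, was at 5.38 and 13.9 RPKM (log2 ratio 1.35, with 2.14, 1.29 and 1.74 on the shared codes and 1.03 in the 384-well pools), and *Psmb8*, a subunit gene of the immunoproteasome, at 2.79 and 6.27 RPKM. *B2m*, the light chain of class I molecules, was at 302.5 RPKM in WT and 152.8 RPKM in het nuclei (-0.98), but higher in het nuclei on code 002 (0.39) and at nearly the same level in both groups without the nuclei highest in mitochondrial share (-0.10).

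Genes of chemokines and their receptors were split between higher members and members with little difference. Of 26 members, 14 passed the filter and 7 (50%) were 2-fold higher in het microglia, against 6.44% of all tested genes, with none 2-fold lower and a median log2 ratio of 0.49. That median was 1.24 on code 002, -0.10 on code 004 and -0.04 on code 005, and 0.62 in the 384-well pools, so that code 002 carried much of it. The 7 were *Ccl12*, *Ccr1*, *Ccr6*, *Ccr2*, *Ccl6*, *Ccl3* and *Cxcl16*, and the other 7 had log2 ratios below 0 and were not past 2-fold. *Ccl12* and *Ccr1*, above 0 in 16.7% and 11.1% of WT nuclei, passed the filter only through the het nuclei. The share of 50% is therefore partly set by the filter. Of the microglia-enriched genes, 11.9% were 2-fold higher.

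*Ccr1*, on chromosome 9 from 123962124 to 123968692, encodes a receptor for CCL3 and related chemokines. It was above 0 in 4 of 36 WT nuclei (11.1%, interval 3.1% to 26.1%), with a highest value of 57.2 RPKM, and in 17 of 32 het nuclei (53.1%, 34.7% to 70.9%), with a median of 13.2 and a highest value of 199.4 RPKM. These intervals cover counting error only. The means were 3.46 ± 11.8 (SD) and 37.9 ± 52.3 RPKM (log2 ratio 3.42), higher on each shared code (9.35, 2.14 and 1.32), 3.69 without the 4 nuclei and 3.69 without the nuclei highest in neuron markers. It was above 0 in 1 of 16 WT and 3 of 19 het nuclei of the 384-well pools, with means of 3.12 and 3.29 RPKM.

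*Ccl12*, on chromosome 11 from 82101845 to 82103400, encodes a chemokine that draws monocytes through CCR2. It was above 0 in 6 WT and 13 het nuclei, with means of 5.28 and 71.7 RPKM (log2 ratio 3.74), but its highest values lay in nuclei led by border macrophage genes: 1594 RPKM in a het nucleus and 102.25 RPKM in a WT nucleus. Without the 4 nuclei the means were 2.587 and 22.999 RPKM (3.10), with 5 of 34 and 11 of 30 nuclei above 0. Without code 002 the log2 ratio was 0.80. The second pools had it at 0 in WT nuclei and above 0 in 2 of 19 het nuclei. *Ccl6* was above 0 in 10 WT and 20 het nuclei (4.72 and 11.4 RPKM, higher on each shared code, and 1.09 in the 384-well pools). *Ccl3* was above 0 in 11 nuclei of each genotype, and its het mean of 12.9 RPKM against 5.59 RPKM in WT rested on a nucleus at 248.9 RPKM.

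Of the homeostatic and identity genes of microglia, all 30 members passed the filter, 2 (6.67%) were 2-fold lower, against 9.39% of all tested genes, and none was 2-fold higher. In all, 20 had a log2 ratio below 0, with a median of -0.28. Without the nuclei highest in neuron markers the median was -0.09 and without those highest in mitochondrial share it was -0.07, so the shift was smaller among the other nuclei. It was -0.18 in the 384-well pools.

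*Cst3*, the gene of cystatin C, was lower in het nuclei from a high level. Its values ran from 36.9 to 4337 RPKM with a median of 1133 in WT, and from 85.9 to 4032 RPKM with a median of 265.8 in het nuclei. The means were 1318 and 610 RPKM (log2 ratio -1.11), with -0.08, -1.95 and -2.72 on codes 002, 004 and 005, but -0.38 without the nuclei highest in neuron markers and -0.18 without those highest in mitochondrial share. *Sparc*, the gene of a matricellular protein, was at 151.015 and 75.3 RPKM (lower on each shared code and in the 384-well pools at -0.32). *Tmem119* was at 352 and 225.5 RPKM, *P2ry12*, the receptor for ADP, at 381 and 256.3 RPKM, and *Cx3cr1*, the receptor for fractalkine, at 363 and 244.1 RPKM, each lower on each shared code. The gap was small on some codes, as for *P2ry12* on code 004 and *Tmem119* on code 002. The het means on code 002 include the het nuclei led by border macrophage genes, which were at 0 for *Tmem119*, *Cx3cr1* and *Sall1*. Code values without those nuclei are not given, so lower het means of these 3 genes on code 002 are not shown for the other nuclei. Values of these genes without the nuclei highest in neuron markers or in mitochondrial share, where the shift of their list was smaller, are not given. Transcription factor genes of microglial identity were at the other end: *Sall1* was at 122.6 and 162.6 RPKM, but lower in het nuclei on code 002 (-0.29), and *Runx1* at 43.1 and 61.02 RPKM, while *Siglech*, a surface lectin gene, was at 347 and 377 RPKM. *Runx1* was higher on each shared code (0.66, 0.77 and 0.55) but not in the 384-well pools (-0.18).

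**Figure D3:**
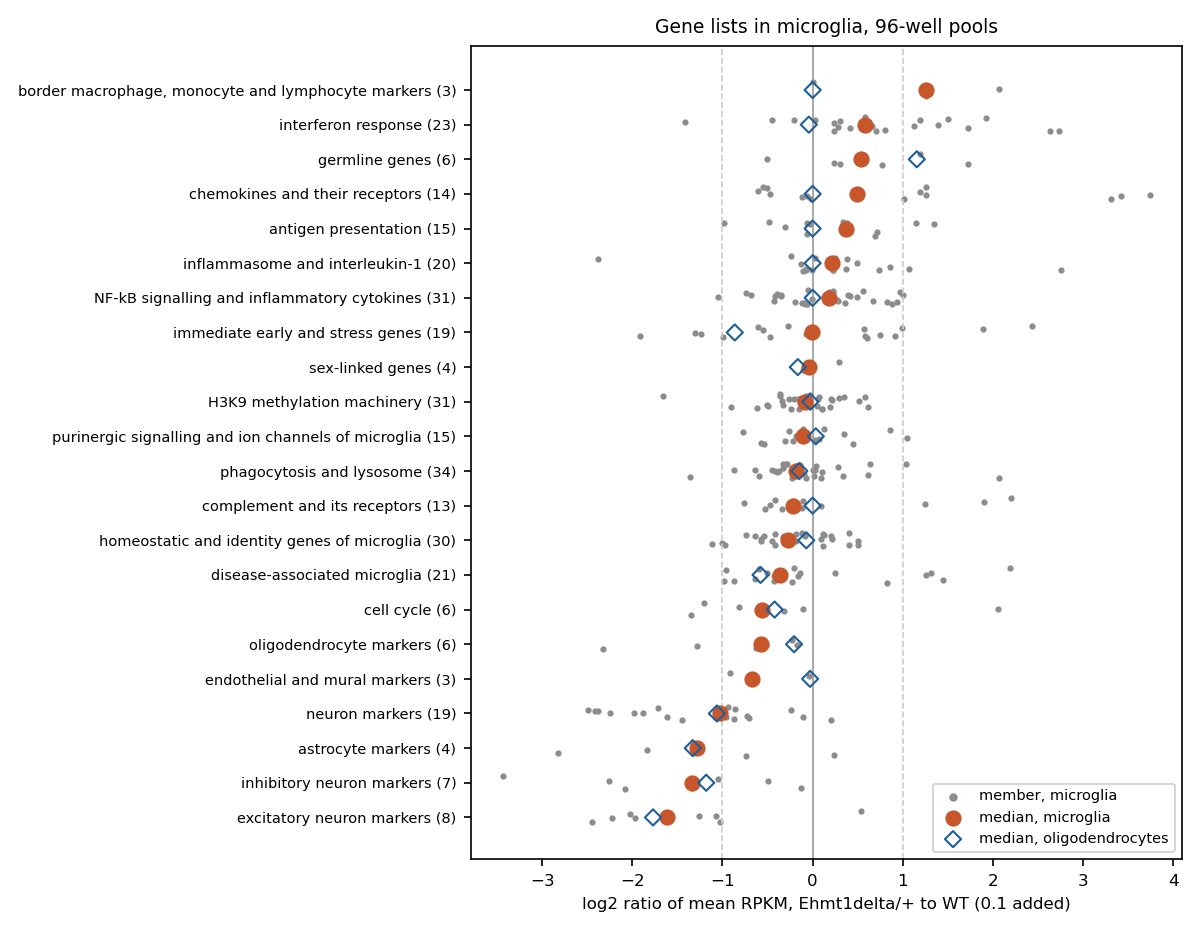
Log2 ratios of mean RPKM, het to WT, for the tested members of each gene list in microglia (grey points), with the median in microglia (orange) and in oligodendrocytes of the same plates (blue diamond). The microglia median is 0.58 for interferon response and 0.49 for chemokines, -0.28 for homeostatic genes and -1.02 for neuron markers, and the oligodendrocyte median of the neuron markers is -1.06.

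*Trpm2* stood out among the 15 tested genes of purinergic signalling and ion channels, of which it was the one past 2-fold. That is 6.67% of the list, against 6.44% of all tested genes 2-fold higher. *Trpm2* encodes a calcium-permeable channel that opens on oxidative stress. Values ran from 0 to 98.8 RPKM with a median of 27.1 in WT, and from 0 to 160 RPKM with a median of 74.6 in het nuclei, and the transcript was found in 33 of 36 and 31 of 32 nuclei, so the difference lay in the level and not in the share of nuclei. The means were 33.99 ± 28.2 (SD) and 70.3 ± 35.8 RPKM (log2 ratio 1.05), with 0.13, 1.26 and 1.16 on the shared codes, 1.03 without the 4 nuclei, 1.11 and 0.91 without the nuclei highest in neuron markers and mitochondrial share, and 0.92 in the 384-well pools. The median of its list was -0.11, or 0.17 without the nuclei highest in mitochondrial share.

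Several genes of disease-associated microglia and of phagocytosis had their highest values in the nuclei that stand apart. Of 21 tested disease-associated genes, 4 (19.05%) were 2-fold higher, against 6.44% of all tested genes, and none was lower. Their median log2 ratio was -0.37, with 0.19, -0.66 and -0.67 on codes 002, 004 and 005, and it was -0.01 without the nuclei highest in neuron markers and 0.20 without those highest in mitochondrial share. *Apoe*, the lipid carrier gene, was at 52.9 and 144.4 RPKM, but at 11.5 and 15.04 RPKM without the 4 nuclei, and it was above 0 in more WT (21 of 36) than het nuclei (15 of 32). *Lyz2*, the lysozyme gene of macrophages, was at 22.9 and 104.6 RPKM, and at 15.1 and 39.6 RPKM without them. Among 34 tested genes of phagocytosis and lysosome, 2 (5.88%) were 2-fold higher and 1 (2.94%) was lower, against 6.44% and 9.39% of all tested genes. Their median was -0.18, or -0.03 and 0.01 without the nuclei highest in neuron markers and in mitochondrial share. *Mrc1* was at 17.5 and 73.6 RPKM, and without the 4 nuclei at 0.886 and 14.6 RPKM, with 5 of 34 WT and 13 of 30 het nuclei above 0. *Fcgr2b*, the inhibitory Fc receptor gene, was above 0 in every nucleus at 30.7 and 63.1 RPKM, and had a log2 ratio of 0.64 without the 4 nuclei and 1.20 in the 384-well pools. *Itgb3*, an integrin gene, was lower at 19.01 and 7.36 RPKM, except on code 004 (1.06), and *Ctsd*, a lysosomal protease gene, was at 705 and 386 RPKM (-0.87).

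The remaining lists are given in short, and several had so few tested members that single genes weigh heavily in their shares. Over all tested genes, 6.44% were 2-fold higher and 9.39% lower, and the counts below are to be read beside these shares. Of 31 tested genes of NF-κB signalling and inflammatory cytokines, *Relb* was 2-fold higher (2.86 and 5.85 RPKM) and *Nfkb2* 2-fold lower (10.7 and 5.12 RPKM), with a median of 0.18. Without the 4 nuclei, 3 genes of this list were 2-fold higher and 1 lower, with a median of 0.09. Of 13 tested complement genes, 3 were 2-fold higher, *C2*, *Cfb* and *Cfp*, which is 23.1% of them against 6.44% of all tested genes, with 1 left without the 4 nuclei. The complement median was -0.21, but 0.14 both without the nuclei highest in neuron markers and without those highest in mitochondrial share, and 0.51 on code 002. Of 19 tested immediate early and stress genes, 2 were 2-fold higher and 3 lower, with a median of -0.01 in microglia (0.30 and 0.48 without the nuclei highest in neuron markers and in mitochondrial share) but -0.86 in oligodendrocytes and -0.92 in neurons. *Egr1* was at 9.57 RPKM in WT and 3.82 RPKM in het microglia, above 0 in 28 and 11 nuclei, and *Hsp90aa1* at 14.5 and 6.08 RPKM. Of 6 tested cell cycle genes, 1 was higher and 2 lower, and of 6 tested germline genes, which G9a and GLP silence in other cells, 2 were higher, *Xlr3a* and *Xlr3c*, whose close copies share reads. Without the 4 nuclei, 3 germline genes were 2-fold higher and 3 cell cycle genes 2-fold lower. Of the 4 tested sex-linked genes none was past 2-fold. Among markers of other cells, 7 of 8 excitatory neuron markers, 5 of 7 inhibitory neuron markers, 2 of 6 oligodendrocyte markers and 2 of 4 astrocyte markers were 2-fold lower in het microglia, and none of these was 2-fold higher. None of 3 tested endothelial and mural markers was past 2-fold, none of 8 oligodendrocyte precursor markers passed the filter, and of 3 tested markers of border macrophages, monocytes and lymphocytes, *Mrc1* and *Ccr2* were 2-fold higher.

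By the naming rule, the 12 microglia-enriched genes with the highest and the 12 with the lowest ratio, each with a mean of at least 5 RPKM in the higher genotype and the same direction on each shared code, were read in full. The 12 higher genes were *Ccl12*, *Ccr1*, *Ifi204*, *Usp18*, *Klk10*, *Tcim*, *H60b*, *Slc13a3*, *Tnfsf13b*, *Depp1*, *Trim25* and *Klk9*, with log2 ratios from 3.74 down to 1.74. Being chosen for size and direction, they describe the upper end of the comparison and are no test of it. In each of the 12 the WT median was 0, and the het nuclei above 0 numbered from 10 (*Ifi204*, *Depp1*) to 20 (*Klk9*) of 32.

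*Klk9* and *Klk10* are neighbouring genes of kallikrein-related secreted proteases on chromosome 7, at 43791891 to 43796757 and 43781035 to 43785410. *Klk9* was above 0 in 14 of 36 WT nuclei, with a highest value of 79.8 RPKM, and in 20 of 32 het nuclei, with a median of 26.5 and a highest value of 123.3 RPKM. Its means were 10.9 ± 18.9 (SD) and 36.6 ± 39.1 RPKM (log2 ratio 1.74, with 2.13, 1.62 and 1.39 on the shared codes). The second pools gave means of 15.97 and 44.6 RPKM (1.48), with 4 of 16 and 8 of 19 nuclei above 0. *Klk10* was at 0.768 and 5.26 RPKM, above 0 in 3 and 11 nuclei.

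*Slc13a3*, a dicarboxylate transporter gene, was above 0 in 9 WT and 17 het nuclei (2.31 and 10.4 RPKM), with 1.17 in the 384-well pools, but nearly all of the difference on shared codes lay on 002 and 004, with 0.08 on code 005. *H60b*, which encodes a ligand of the NKG2D receptor of natural killer cells and shares exons with *Raet1e*, was above 0 in 6 and 16 nuclei (3.74 and 18.6 RPKM). *Trim25*, a ubiquitin ligase gene of the antiviral RIG-I pathway, was above 0 in 16 and 19 nuclei (3.53 and 12.4 RPKM), so the level differed more than the share. *Tnfsf13b*, the gene of the B cell factor BAFF, was above 0 in 6 and 13 nuclei, *Tcim* in 6 and 14, and *Depp1* in 5 and 10. Of the 12, 10 were higher in het nuclei of the 384-well pools and 7 were 2-fold higher, although *Ccl12*, *Usp18*, *Klk10*, *Tcim* and *H60b* were listed at 0 in WT nuclei there, *Trim25* was lower and *Ifi204* was listed at 0. Of all tested genes, 22% were 2-fold higher in those pools, and the share of all microglia-enriched genes there is not given.

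The 12 lower enriched genes were *Mmp28*, *Hoga1*, *Galnt3*, *Cdc42bpg*, *Ctsw*, *Gpr165*, *Ighd*, *Olfr111*, *Mycl*, *Slc39a12*, *Col6a3* and *Dnajc28*, with log2 ratios from -4.69 to -1.30. *Mmp28*, a matrix metalloproteinase gene on chromosome 11 from 83440768 to 83463071, was above 0 in 15 of 36 WT nuclei (41.7%, interval 25.5% to 59.2%), with a highest value of 26.9 RPKM, and in 2 of 32 het nuclei (6.25%, 0.8% to 20.8%), with a highest value of 2.37 RPKM. The 384-well pools had it above 0 in 3 of 16 WT nuclei and 1 of 19 het nuclei, but at a higher het mean (4.08 and 9.52 RPKM). *Galnt3*, which encodes an enzyme that starts O-linked glycosylation, was above 0 in 18 WT and 4 het nuclei (6.46 and 0.770 RPKM). *Gpr165*, an orphan receptor gene, was above 0 in 21 and 6 nuclei (16.96 and 5.25 RPKM), and *Olfr111*, an olfactory receptor gene, in 20 and 6 nuclei (23.7 and 8.92 RPKM).

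*Ctsw*, the gene of a protease of cytotoxic lymphocytes, rested on 1 nucleus for its place among the lower genes. Its highest WT value of 539 RPKM lay in the nucleus led by *Gzma*, and without the 4 nuclei the means were 14.2 and 7.78 RPKM (log2 ratio -0.86). In the 384-well pools 3 of the 12, *Olfr111*, *Mycl* and *Dnajc28*, were lower in het nuclei, each by over 2-fold, and the other 9 were higher. Of all tested genes, 21.6% were 2-fold lower in those pools.

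**Figure D4:**
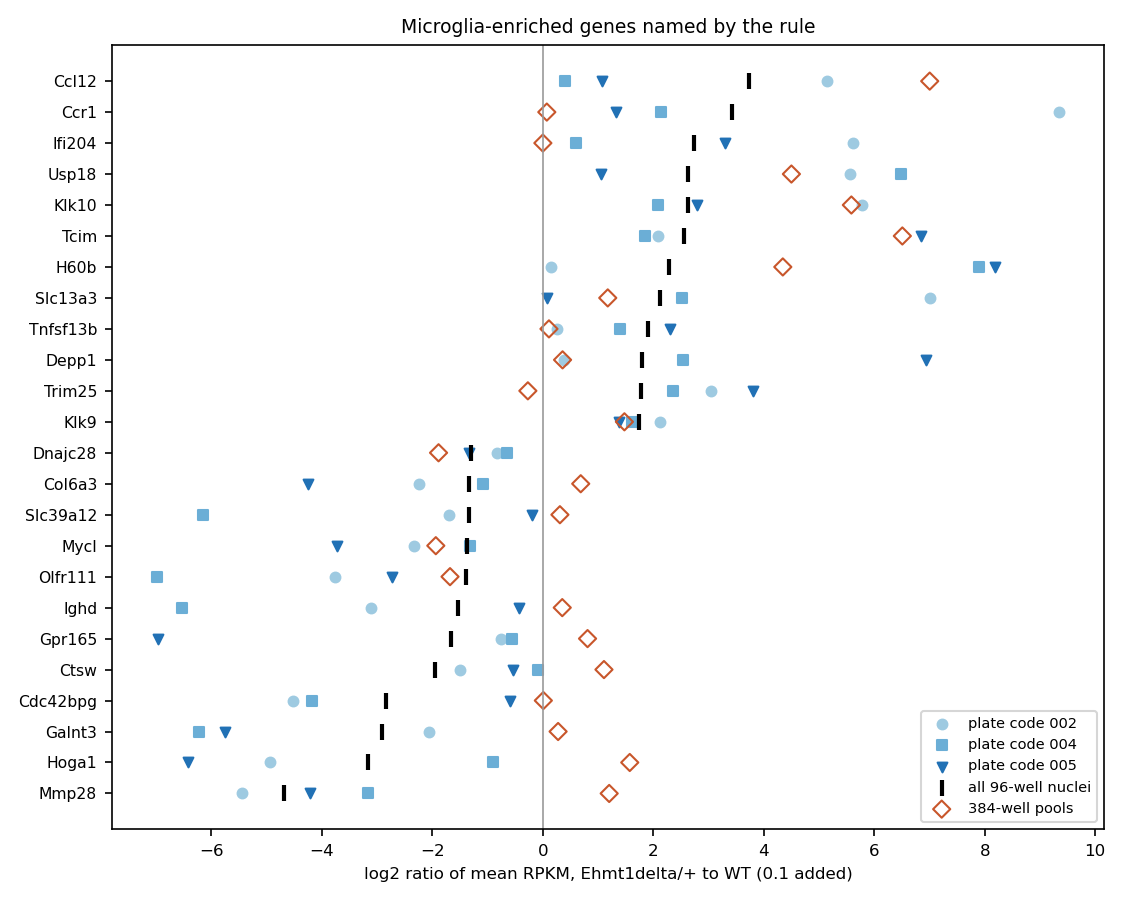
Log2 ratio of mean RPKM, het to WT, for the 24 named microglia-enriched genes over all nuclei, on plate codes 002, 004 and 005, and in the 384-well pools. The 12 higher genes lie between 1.74 and 3.74 over all nuclei and 10 of them lie above 0 in the 384-well pools, while 3 of the 12 lower genes lie below 0 there.

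Among genes not enriched in microglia, the 6 highest by the same rule were *Pla2g12a*, *Atrnl1*, *Pdk2*, *Kcnj9*, *Dnase1l1* and *Tssc4*. *Pla2g12a*, a phospholipase gene, was above 0 in 2 WT and 9 het nuclei (0.0956 and 6.68 RPKM). *Pdk2*, a kinase gene that restrains pyruvate dehydrogenase, was above 0 in 4 and 14 nuclei (1.05 and 6.43 RPKM). In the 384-well pools 4 of the 6 were 2-fold higher, against 22% of all tested genes, and *Pdk2* and *Tssc4* were lower.

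The 6 lowest were *Lancl2*, *Polr2h*, *Tro*, *Sh3gl2*, *Ctrl* and *Sept5*. *Lancl2* was above 0 in 15 of 36 WT nuclei (mean 6.17 RPKM, highest 32.03 RPKM) and listed at 0 in the 32 het nuclei, and *Polr2h*, a subunit gene of RNA polymerases, was above 0 in 11 WT nuclei (5.58 RPKM) and listed at 0 in het nuclei. A count of 0 allows a share of up to 9.375% for each. *Sept5* and *Sh3gl2* encode a septin and an endophilin of the synapse. *Sept5* was above 0 in 26 WT nuclei (16.6 RPKM) and 8 het nuclei (1.28 RPKM), and *Sh3gl2* in 18 and 3 nuclei (5.15 and 0.281 RPKM), in the same direction as the neuron markers of these nuclei. Without the nuclei highest in neuron markers their log2 ratios were -2.66 and -2.56, against -3.59 and -3.79 with them. In the 384-well pools, where neuron markers were higher in het nuclei, both had a higher het mean (2.01 and 0.40). *Sh3gl2* was above 0 there in 1 of 16 WT and 1 of 19 het nuclei. The part of neuron RNA in these differences was not tested.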

How the data were processed

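Single nuclei were sequenced by RamDA-seq on 96-well and 384-well plates. Per the methods and the submitters' processing notes, the authors trimmed reads with Fastq-mcf, mapped them to mm10 with HISAT2 2.0.4, counted them per gene with featureCounts (Subread 1.5.0) on a Gencode annotation, dropped poor nuclei and set cell types from clusters and markers. The deposited values are RPKM (reads scaled by gene length and by the nucleus's total) for 52636 genes, of which 52403 have a symbol and 49035 a position in GENCODE M21. In the microglia, 99.9% of values above 0 were whole hundredths of a read (within 0.1 hundredths) and 61.6% whole reads (within 0.001 reads), so some were counted as parts of a read, and genes that share exons or have close copies are uncertain. Read totals, between 340582 and 699618 per 96-well microglia nucleus, were recovered from these steps.

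Groups and cell types came from the labels. RPKM was averaged over nuclei, and 0.1 was added to both means before each log2 ratio, so ratios of low genes are understated. The filter kept genes above 0 in 20% or more of WT or of het nuclei, which were read against a 2-fold limit. A test of counts by edgeR, as the authors ran on single nuclei, was not used, since the files hold RPKM and each genotype is 1 pool. Shares carry exact Clopper-Pearson intervals at 95%, and a share of 0 the limit that 3 counts allow.

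The members and the 23 gene lists were chosen with earlier results of these data known. Named are the genes the study names, the 12 highest and 12 lowest microglia-enriched genes (mean at least 4 times that of neurons and oligodendrocytes, at least 5 RPKM in the higher genotype, same direction on 3 plate codes as over all nuclei), the 6 highest and 6 lowest others, and up to 4 members per list. Predicted genes, pseudogenes, ribosomal protein genes and small RNAs were passed over, 20 among the higher and 7 among the lower enriched ranks, and 26 and 5 among the others. *Kdm7a*, *Cbx5*, *Trpm2*, *Nlrp1b* and other list members outside this rule were named after their values were seen. A few list members are not reported here. Promoters came from RefSeq (GRCm38.p6). The steps were tested on simulated data. Alternatives were other pseudocounts, filters and averages, leaving out plate codes or nuclei, and the 384-well pools. The tools were SciPy 1.17.1, pandas 2.3.3 and numpy 2.4.6 in Python 3.11.15.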

Additional observations from a re-analysis of the deposited data

Results flagged for a closer look

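Each of the 3 genes below had a log2 ratio of het to WT of one sign in microglia and of the other sign in another cell type of the same 96-well plates, on all 3 shared plate codes in both. The differences between cell types were not tested, since each genotype is 1 pool. *Slc13a3*, a dicarboxylate transporter gene, had a log2 ratio of 2.12 in microglia and -1.48 in oligodendrocytes. Its oligodendrocyte means were 0.668 RPKM in WT and 0.175 RPKM in het, above 0 in 8 of 73 and 3 of 71 nuclei. *Klk9*, a kallikrein-related protease gene, had 1.74 in microglia and -1.07 in neurons. *Kcnj9*, a potassium channel gene, had 2.46 in microglia and -1.36 in oligodendrocytes. In WT and het oligodendrocytes it was at 1.49 and 0.516 RPKM, above 0 in 13 of 73 and 4 of 71 nuclei. The values outside microglia are low and rest on few nuclei. All 3 were named for their ratio in microglia, and that part of the contrast is a description.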

How the results depend on the processing

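The counts of genes past 2-fold depended on how low values were handled. Of the genes tested, 6.44% were higher and 9.39% lower. The higher share was 3.49% with a pseudocount of 1, 12.1% of 29982 genes with no filter, 2.75% of 10634 genes with a filter of 50% of nuclei, 1.76% by the mean of log2(RPKM + 1) and 16.8% of 9456 genes in the 384-well pools, and the lower share was 4.86%, 16.3%, 5.37%, 3.63% and 16.5% in the same order. Leaving out each plate code gave 6.75% to 9.43% higher and 9.86% to 14.6% lower genes, the most without code 002. The cause was not tested. The difference in *Casp1*-positive share was 34.4 points and lay between 24.7 and 45.2 points under the other 96-well settings, but was -17.4 points in the 384-well pools. The log2 ratio of the neuron marker sum was -1.55, lay between -2.69 and -1.18 under the other 96-well settings, and was 0.962 in the 384-well pools.

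Over the 41 named genes and 15 alternatives, 533 values moved by less than 1 SD over the plate codes, 66 moved by more, and 16 values of genes past 2-fold changed sign, each of them in the 384-well pools. This SD is wide for genes listed at 0 on a code, so the 533 are no measure of stability. *Ccr1*, with an SD of 4.42, is among them although it fell from 3.42 to 0.07 in the 384-well pools. Setting the median log2 ratio to 0 shifted every value by 0.00148 only. *Ehmt2* and *Nlrp3*, which were not past 2-fold, also changed sign, *Ehmt2* to 0.59 in the 384-well pools and *Nlrp3* from -0.07 to between 0.049 and 0.34 under 4 settings of the 96-well pools, and *Ifi204* was at 0 in both 384-well groups. The log2 ratios of the 16 were 5.36 for *Il1b* (no bound, since it was listed at 0 in a group of each plate format), -0.27 for *Trim25*, 1.20 for *Mmp28*, 1.57 for *Hoga1*, 0.28 for *Galnt3*, 0.0086 for *Cdc42bpg*, 1.11 for *Ctsw*, 0.81 for *Gpr165*, 0.35 for *Ighd*, 0.31 for *Slc39a12*, 0.69 for *Col6a3*, -0.38 for *Pdk2*, -1.18 for *Tssc4*, 0.40 for *Sh3gl2*, 2.58 for *Ctrl* and 2.01 for *Sept5*. The cause was not tested. The 384-well microglia have fewer reads and carry a transgene, so that pool, depth and plate format cannot be told apart. No paired analysis was possible because each genotype is 1 pool and no label pairs nuclei or mice. The alternatives without the 4 nuclei led by other genes and without the nuclei highest in mitochondrial share were chosen after seeing the data.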
